A study of Mus musculus with 10 samples.

Results

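Doxycycline (Dox) for 6 d was compared with no Dox in *Max*-null embryonic stem cells (ESCs) grown in the 2i+LIF condition, with 1 array a side. The comparison took 2 of the 10 arrays of the study, chosen by their labels alone. Both arrays came from male 129SV ESCs with both endogenous *Max* alleles disrupted and a *Max* cDNA, inserted at ROSA26, under tetracycline-off control, so that Dox switched off the only source of MAX. All cells of the comparison therefore carried the disruption, the untreated ones included, and the cells are a single engineered line. One array held RNA of cells kept in 2i for 6 d without Dox, and the other RNA of cells kept in 2i with Dox for 6 d. For 2i, the culture holds the MEK inhibitor PD0325901 and the GSK3β inhibitor CHIR99021 together with leukaemia inhibitory factor (LIF). Arrays of the same line in LIF+serum are set beside them, namely both untreated arrays and the array after 6 d of Dox, which the labels tie to the second untreated array. Each value is a log2 expression level from robust multi-array analysis (RMA), and each difference is the Dox array minus the untreated array. With 1 array a side there is no spread between replicates and no test, and every difference below describes these libraries only.

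MAX is the obligate partner of MYC proteins. MYC-MAX dimers bind the E-box sequence and are known to raise genes for ribosome assembly, nucleotide synthesis and glycolysis, while dimers of MAX with the MXD proteins, MNT and MGA repress through the same sequence. MGA-MAX belongs to a Polycomb complex, PRC1.6, that silences germ cell genes in ESCs. In 2i, inhibition of MEK keeps the FGF-ERK pathway low and inhibition of GSK3 keeps β-catenin signalling on, and the cells hold a naive state.

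The labels were first set against known genes. *Egr1*, an immediate early gene of the ERK pathway, stood at 5.14 without and 4.91 with Dox in 2i, below 8.80 and 8.34 on the untreated LIF+serum arrays. *Cdx1*, a β-catenin target, stood at 8.37 and 9.23 in 2i, above 5.61 and 5.96 in LIF+serum, but the whole list of 14 β-catenin targets did not set the media apart, with medians of 5.65 without Dox in 2i and 5.99 and 5.93 in untreated LIF+serum. All 10 genes of the ES cell identity list reached 6 on both 2i arrays, with medians of 12.4 without and 12.6 with Dox. Of 14 feeder fibroblast markers, 2 reached 6 on either array, *Fbln1* (8.68 without and 9.53 with Dox) and *Pdgfrb*, and the defining collagen genes *Col1a1*, *Col1a2* and *Col3a1* lay between 2.64 and 4.15 on both. The 3′ minus 5′ difference of the β-actin controls, which grows as RNA shortens, was 0.78 without and 0.76 with Dox. In LIF+serum it was 0.41 and 0.88 on the untreated arrays and 1.46 after 6 d of Dox, so it was not matched there. The probe set of *Max* read 5.74 and 5.54. Its place against the disrupted exons and the cDNA is unknown here, and it therefore serves as no check.

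One feature of the Dox array bears on every result. Genes of chromosome 3 were higher with Dox by a median of 0.31 (482 genes) and genes of chromosome 6 by a median of 0.29 (484 genes), whereas the medians of the other 18 chromosomes lay between -0.19 and 0.02. On chromosome 3, 77.8% of the genes were higher with Dox, and on chromosome 6 74.8%. The shift ran along both chromosomes: cut into 8 stretches of 60 or 61 neighbouring genes, chromosome 3 had medians from 0.18 to 0.43 and chromosome 6 from 0.05 to 0.55. It belonged to the Dox array, since that array stood 0.29 above the others on chromosome 3, where the other 9 arrays lay between -0.15 and 0.04, and 0.27 above on chromosome 6, where the other 9 lay between -0.09 and 0.16. These chromosomes held 9.62% of the genes counted below, 31.5% of the genes at least 2-fold higher and 4.7% of those at least 2-fold lower. Copy number was not measured, and the part of this shift in each result was not tested, and values without these chromosomes are given beside several lists. Of 59 list medians, 57 moved by less than 0.22 without them, while MHC class II went from 0.39 to 0.75 and imprinted genes from 0.01 to -0.23.

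**Figure D1:**
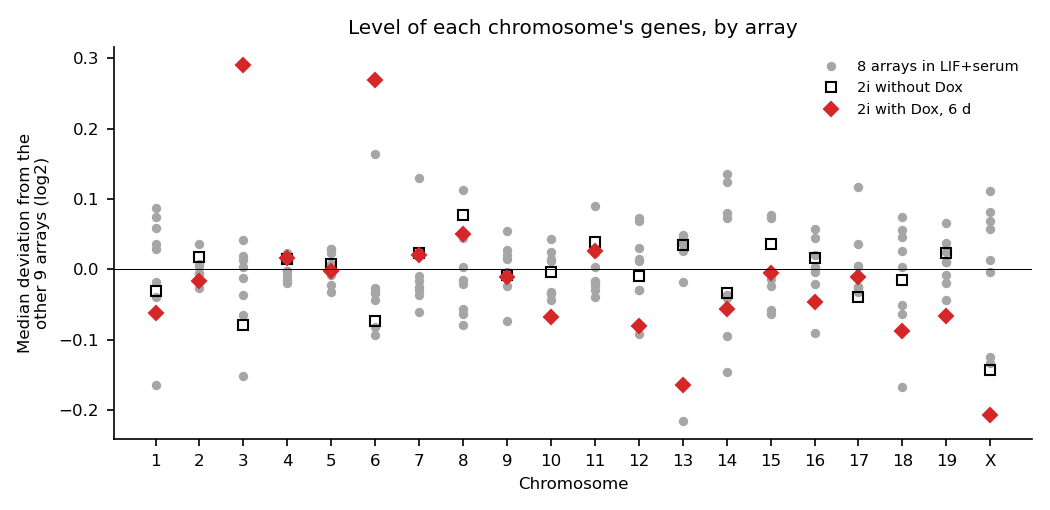
Median deviation of each chromosome's genes (log2) on one array from the median of the other 9 arrays, after subtracting the same over all genes, for chromosomes 1 to 19 and X. Red diamonds are the 2i array with Dox, open squares the 2i array without Dox and grey points the 8 arrays in LIF+serum. The red diamonds of chromosomes 3 and 6 stand at 0.29 and 0.27, above every other array.

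Across all genes, more were lower than higher after Dox in 2i. Of 10046 genes that reached a level of 6 on at least 1 of both 2i arrays, 270 were at least 2-fold higher (2.69%) and 362 at least 2-fold lower (3.6%). At 4-fold, 36 were higher and 49 lower. Without chromosomes 3 and 6, 185 were higher and 345 lower of 9080. As a scale for these counts, 11.5% of 10499 genes lay at least 2-fold apart between both untreated LIF+serum arrays, which carry the same treatment label. These 2 arrays are labelled as references for different days of Dox and differed in the β-actin 3′ minus 5′ measure (0.41 and 0.88). They are therefore no matched scale for the 2i arrays. The count in 2i is below theirs, and single genes near 2-fold carry little weight. The genes nearest the limit were *Ptgfrn* (1.00) and *Egln1* (0.9986) on the higher side and *Cebpg* (-1.0002) and *Calcoco2* (-0.9997) on the lower. A gene's several probe sets on these arrays had a pooled SD of 0.22 in their differences over 4221 genes, which covers the probes and not the cells. Of 200 genes past 2-fold with several probe sets that reached 6, all probe sets agreed in sign for 193.

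The genes with the largest differences were of several kinds. The γ-crystallin gene *Crygd* stood at 4.47 without and 8.22 with Dox (13.5-fold higher), the highest difference among genes that reached 6. It was followed by the MHC class II gene *H2-Eb1*, the germ cell helicase gene *Mov10l1*, the mitophagy receptor gene *Bnip3*, the lactate exporter gene *Slc16a3* and *H2-Ab1*. Of the 30 genes with the largest differences upward, 6 were on the germ cell lists, *Mov10l1*, *Tdrd9*, *Hormad1*, *Sycp1*, *Sycp3* and *Stag3*. Others of the 30 were *Derl3*, an endoplasmic reticulum protein degradation gene (6.31 and 9.24), *Apcdd1*, an inhibitor of WNT signalling (8.26 and 11.02), *Mgll*, monoacylglycerol lipase (6.09 and 8.80), and the transcription factor genes *Tbx21* (4.29 and 6.98) and *Aire* (6.03 and 8.67). The 4 probe sets of *Mgll*, on chromosome 6, ranged from -0.02 to 2.70, and the 6 of *Apcdd1* from 0.67 to 3.13.

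At the other end, *Gm13261* stood at 7.76 without and 3.29 with Dox, and *Pdha2*, an intronless, testis-type subunit gene of pyruvate dehydrogenase, at 10.03 and 5.98 (16.5-fold lower). The protease inhibitor gene *Spink10* was 12.8-fold lower. Among the 30 genes with the largest differences downward were *Otx2*, *Ddit3*, the annexin gene *Anxa1* (9.62 and 6.84), the prostaglandin synthase gene *Ptgs2* (6.54 and 4.04) and the monoamine oxidase gene *Maoa* (8.53 and 6.22). Their other probe sets did not always show the same size: the second probe set of *Anxa1* differed by 0.16 and that of *Ptgs2* by -0.69.

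**Figure D2:**
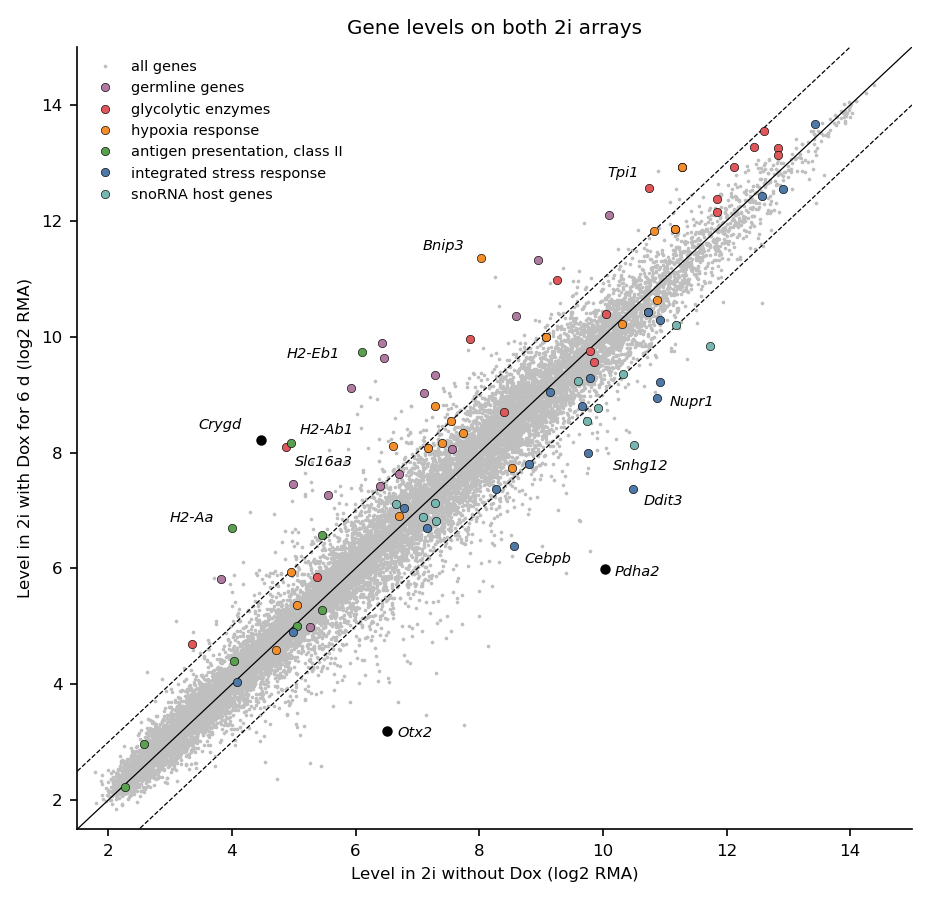
Level of each gene (log2 RMA) on the 2i array without Dox (x axis) and with Dox for 6 d (y axis). Grey points are all 18193 genes, coloured points are members of 6 gene lists, black points are 3 further named genes, the solid line marks equal levels and the dashed lines 2-fold. *Bnip3*, *Slc16a3* and the class II genes lie far above the lines, and *Ddit3*, *Nupr1*, *Snhg12*, *Otx2* and *Pdha2* below.

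Because MAX acts through the E-box, the promoters of these genes were searched for its canonical form. RefSeq windows on GRCm38.p6, from 250 bases before to 50 after the start of each gene's first listed promoter, were found for 8215 of the 10046 genes. The E-box CACGTG, which reads the same on both strands, stood in 11.0% of them and in 7.15% of all 32851 promoters of the RefSeq table. It stood in 51 of 230 promoters of genes at least 2-fold higher with Dox (22.2%) and in 19 of 279 of genes at least 2-fold lower (6.81%). At least 2 copies were found in 12 promoters of the higher genes (5.22%) and in 1.28% of all. The share was 11.9% among genes 1.5-fold to 2-fold higher and 10.9% among genes under 1.5-fold either way. It was 20.1% among the higher genes with the germ cell lists left out and 22.3% without chromosomes 3 and 6. In LIF+serum after 6 d of Dox the share was 13.9% among the genes at least 2-fold higher, against 10.8% of all. Base composition differed between the groups, with means of 21.3, 16.6 and 22.4 CpG per promoter in higher, lower and all genes. Within the lowest, middle and highest tertile of CpG number the E-box stood in 16.3%, 30.8% and 21.9% of the higher genes' promoters, against 8.62%, 11.8% and 12.8% of all. The lower genes' promoters held it in 6.92%, 10.6% and 1.85%, so that they lay within 2 percentage points of all genes in the lowest and middle tertiles.

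The following stretches are shown because they carry the E-box of higher genes from 5 of the groups described below: the hypoxia gene *Bnip3*, the sterol sensor gene *Insig1*, the MAX partner gene *Mnt*, the clock genes *Per1* and *Ciart* and the meiotic genes *Hormad1* and *Sycp3*. Each is 70 bases of the strand of the gene, 5′ to 3′, from upstream of its start, with CACGTG in capitals.

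*Bnip3*, chr7:138909577-138909646, minus strand: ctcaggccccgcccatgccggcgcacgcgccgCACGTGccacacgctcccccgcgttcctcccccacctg
*Insig1*, chr5:28071279-28071348, plus strand: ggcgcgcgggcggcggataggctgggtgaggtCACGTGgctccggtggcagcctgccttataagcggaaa
*Mnt*, chr11:74830769-74830838, plus strand: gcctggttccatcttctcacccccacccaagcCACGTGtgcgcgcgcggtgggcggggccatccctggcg
*Per1*, chr11:69098751-69098820, plus strand: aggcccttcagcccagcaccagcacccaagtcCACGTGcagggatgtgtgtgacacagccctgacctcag
*Ciart*, chr3:95882235-95882304, minus strand: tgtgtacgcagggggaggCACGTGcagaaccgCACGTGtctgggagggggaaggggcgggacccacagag
*Hormad1*, chr3:95559607-95559676, plus strand: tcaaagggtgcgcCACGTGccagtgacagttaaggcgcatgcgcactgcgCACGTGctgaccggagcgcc
*Sycp3*, chr10:88459512-88459581, plus strand: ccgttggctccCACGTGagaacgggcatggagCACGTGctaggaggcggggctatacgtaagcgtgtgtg

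*Ciart*, *Hormad1* and *Sycp3* each show a pair of E-boxes within the stretch. A match is a description of the letters, not of a bound site, and binding was not measured here.

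Other motifs were counted the same way, on both strands. TGATGNAA, an ATF4 and C/EBP composite element, stood in 5.02% of promoters of genes at least 2-fold lower, 2.17% of higher, 2.14% of all and 3.97% of the RefSeq table. TGACNNNGC, the antioxidant element of NRF2, stood in 26 of 279 lower, 45 of 230 higher and 1236 of all 8215 promoters, and TTCCCGCC, an E2F element, in 1.79%, 3.04% and 4.52% of lower, higher and all. The sterol element TCACNCCAC stood in 0.717%, 1.3% and 1.02%, and the interferon-stimulated response element in 3.23%, 2.17% and 2.43%. The lysosomal CLEAR element contains the E-box and stood in 0.358%, 0.87% and 0.864%. ACGTG, the core of the hypoxia response element, lies inside CACGTG as well, and was added after the values were seen. It stood in 42.2% of higher, 16.1% of lower and 27.3% of all, and in promoters without CACGTG in 25.7% of higher and 18.3% of all. Lower genes that carried the ATF4 element are shown with the match in capitals, which in *Nupr1* is on the opposite strand: the stress gene *Nupr1*, the amino acid transporter gene *Slc7a7* and the mitochondrial gene *Chchd10*.

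*Nupr1*, chr7:126625543-126625612, minus strand: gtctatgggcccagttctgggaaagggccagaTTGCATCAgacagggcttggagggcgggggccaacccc
*Slc7a7*, chr14:54418048-54418117, minus strand: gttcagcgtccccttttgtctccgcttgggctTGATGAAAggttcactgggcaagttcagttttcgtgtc
*Chchd10*, chr10:75933026-75933095, plus strand: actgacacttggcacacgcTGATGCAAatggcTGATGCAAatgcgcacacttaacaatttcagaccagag

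Glycolysis and the response to low oxygen stood highest among the metabolic lists. Glycolysis turns glucose into pyruvate and lactate in the cytosol, and many of its genes are targets of both MYC and the hypoxia-inducible factors. Of 20 measured members of the glycolytic list, 18 were higher with Dox, 6 at least 2-fold and none 2-fold lower, with a median of 0.76. Over all 18193 genes the median was 0.02, 1.75% were at least 2-fold higher and 2.42% at least 2-fold lower. Of these, 6 lie on chromosomes 3 and 6, and the other 14 had a median of 0.67 with 4 at least 2-fold higher.

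The steps of the pathway were covered from entry to exit. The glucose transporter gene *Slc2a1* stood at 11.28 without and 12.92 with Dox (3.13-fold higher), and its 3 probe sets differed by 1.65 to 2.07. The phosphofructokinase gene *Pfkl* stood at 9.25 and 10.99, with probe sets from 0.74 to 1.74. The triose-phosphate isomerase gene *Tpi1*, on chromosome 6, stood at 10.74 and 12.57, and its 3 probe sets differed by 1.5997 to 1.82. *Aldoc*, an aldolase gene, was 4.3-fold higher on its brightest probe set and differed by 0.33 on the other. The lactate exporter *Slc16a3* stood at 4.88, below 6, and at 8.10, a 9.29-fold difference read from 1 probe set. The lactate dehydrogenase gene *Ldha* (0.82), the phosphoglycerate kinase gene *Pgk1* (0.84), the hexokinase gene *Hk2* (0.70) and *Pdk1* (0.93), which shuts pyruvate out of the mitochondrion, were higher by less than 2-fold.

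Of 19 genes of the hypoxia response list, 14 were higher with Dox, 4 at least 2-fold, and the median was 0.76 (0.91 without chromosomes 3 and 6). *Bnip3* stood at 8.03 and 11.35, a 9.99-fold difference. The collagen prolyl hydroxylase genes *P4ha1* (7.28 and 8.81) and *P4ha2* (6.60 and 8.12) were 2.89-fold and 2.86-fold higher. *Egln1*, the oxygen sensor (1.00), *Higd1a* (1.00), *Ankrd37* (0.97) and *Vegfa* (0.91) lay just under 2-fold. *Epas1*, which encodes the HIF2α subunit itself, was lower by 0.81. Oxygen tension and cell density were not given for either array, and their part was not tested.

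Further metabolic lists moved less. In the tricarboxylic acid cycle list (23 genes) the median was -0.09, and in the respiratory chain list (27 genes) -0.04. Of 20 cholesterol synthesis genes 19 were higher with a median of 0.46, and *Insig1*, the sterol sensor, passed 2-fold (6.90 and 8.16). In fatty acid oxidation 9 of 17 genes were higher and 8 lower, with a median of 0.02. At least 2-fold lower were 3, the acyl-CoA dehydrogenase gene *Acadl* (9.06 and 7.80), the thiolase gene *Acaa2* (10.35 and 9.13) and *Decr1* (7.82 and 6.68). The lipid nuclear receptor gene *Pparg*, below 6 on both arrays, was higher (4.17 and 5.73). The acyl-CoA thioesterase genes *Acot1* (7.29 and 4.19) and *Acot2* (8.35 and 6.51) were 8.61-fold and 3.57-fold lower. *Txnip* and *Arrdc4*, arrestin-like genes that MLX proteins raise when glucose is high, were lower by 1.09 and 1.38, although *Txnip* lies on chromosome 3. They were the only 2 past 2-fold of 11 glucose-sensing genes, of which 4 were higher and 7 lower, with a median of -0.05. The NRF2 list had a median of 0.20 with *Nqo1* (7.23 and 8.62) and *Me1* (9.07 and 10.17) at least 2-fold higher of 20.

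A group chosen after its values were seen concerned betaine. *Bhmt*, which uses betaine to turn homocysteine into methionine, stood at 9.79 without and 6.31 with Dox (11.2-fold lower). Its paralogue *Bhmt2* stood at 9.39 and 7.60, and *Dmgdh*, which takes the next step, at 9.81 and 8.50. These 3 genes, all on chromosome 13, lay at 4.57 or lower on both untreated LIF+serum arrays. Chromosome 13 had the lowest median difference of all chromosomes in 2i (-0.19), with 6.93% of its genes at least 2-fold lower against 3.6% over all. On the X chromosome that share was larger, 7.77%, with a median of -0.10. The other 3 of 6 betaine and choline breakdown genes measured, *Sardh*, *Aldh7a1* and *Chdh*, differed by 0.10, 0.26 and 0.00.

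**Figure D3:**
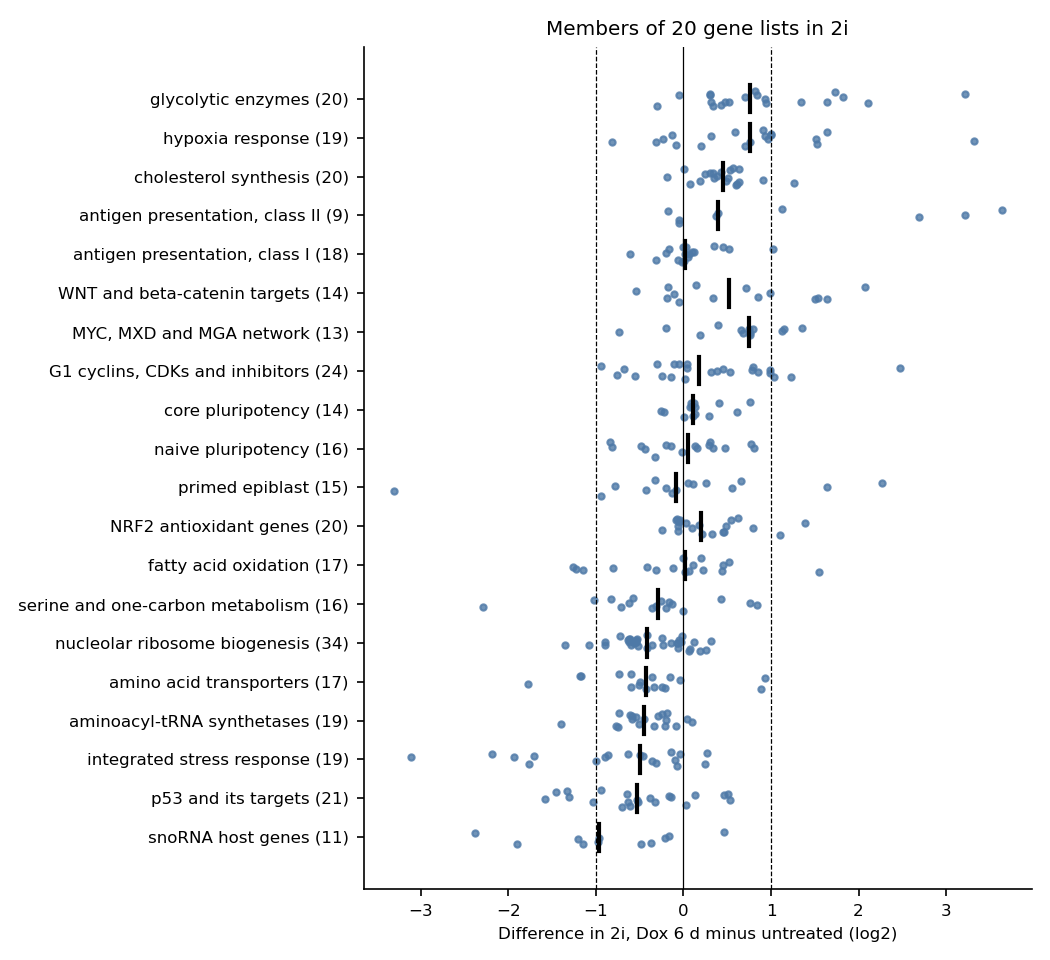
Difference in 2i, Dox for 6 d minus untreated (log2), of each measured member of 20 gene lists, with the number of members in brackets. Points are genes, black bars list medians and dashed lines 2-fold; points are scattered vertically for legibility. Glycolysis and hypoxia genes lie mostly right of 0, and the stress, p53 and snoRNA host lists mostly left.

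Genes of the integrated stress response (ISR) were lower after Dox in 2i. In this response, kinases such as GCN2 and PERK phosphorylate eIF2α, ATF4 protein accumulates, and ATF4 raises CHOP (*Ddit3*), transporters and amino acid synthesis genes. Of 19 measured members 17 were lower, 6 at least 2-fold and none higher by 2-fold, with a median of -0.49 (-0.63 for the 17 members outside chromosomes 3 and 6). Between both untreated LIF+serum arrays the same list differed by a median of 0.59. *Ddit3* stood at 10.49 without and 7.38 with Dox, 8.63-fold lower, while its second probe set differed by -0.78. *Cebpb* stood at 8.56 and 6.38, with its probe sets at -2.19 and -1.92. *Nupr1* stood at 10.88 and 8.94, and both of its probe sets differed by about the same, -1.93 and -1.91. *Trib3*, a pseudokinase that damps the response, stood at 10.92 and 9.22 (-1.71 and -1.69 on its 2 probe sets), and *Atf5* at 9.76 and 7.99. *Cebpg* was at the 2-fold limit. *Atf3* (-0.89) and *Ppp1r15a* (-0.86), the feedback phosphatase subunit gene, lay under 2-fold.

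Lists of aminoacyl-tRNA synthetases, amino acid transporters and one-carbon enzymes, which include targets of ATF4, were lower too, by smaller sizes. Whether ATF4 had a part was not tested. Of 19 aminoacyl-tRNA synthetase genes 17 were lower, with a median of -0.45 and 1 at least 2-fold, *Eprs* (11.15 and 9.76), whose 4 probe sets ranged from -1.39 to -0.14. Of 17 amino acid transporter genes 15 were lower, with a median of -0.43, and 3 at least 2-fold: *Slc7a7* (8.21 and 6.44), *Slc1a4* (8.91 and 7.73) and *Slc38a4* (10.85 and 9.69). In serine and one-carbon metabolism the median was -0.28 over 16 genes, with 2 at least 2-fold lower. These were *Aldh1l2*, a mitochondrial formyltetrahydrofolate dehydrogenase gene (7.48 and 5.19, 4.89-fold lower), and *Psat1*, the serine synthesis aminotransferase gene (12.60 and 11.57). The endoplasmic reticulum unfolded protein response list, by contrast, had a median of 0.16 over 21 genes, with *Derl3* higher and *Sel1l* lower by at least 2-fold.

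Other stress lists split. Of 21 genes of the p53 list, 16 were lower and 5 at least 2-fold, with a median of -0.53 (-0.61 without chromosomes 3 and 6): the antiproliferative gene *Btg2* (8.74 and 7.29), *Plk2* (10.18 and 8.60), the cyclin G gene *Ccng1* (11.17 and 9.87), the BH3-only gene *Pmaip1* (7.08 and 5.75) and the death receptor gene *Eda2r* (8.37 and 7.34). The second probe set of *Plk2* differed by 0.16. Among 15 heat shock genes the median was -0.14 (-0.31 without chromosomes 3 and 6), with *Hspa1a* (7.25 and 5.42) and the collagen chaperone gene *Serpinh1* (8.32 and 7.20) at least 2-fold lower. *Jun*, a stress-responsive AP-1 subunit, was lower by 1.31 and 0.68 on its probe sets. The BCL2 family list had no member past 2-fold among 13.

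**Figure D4:**
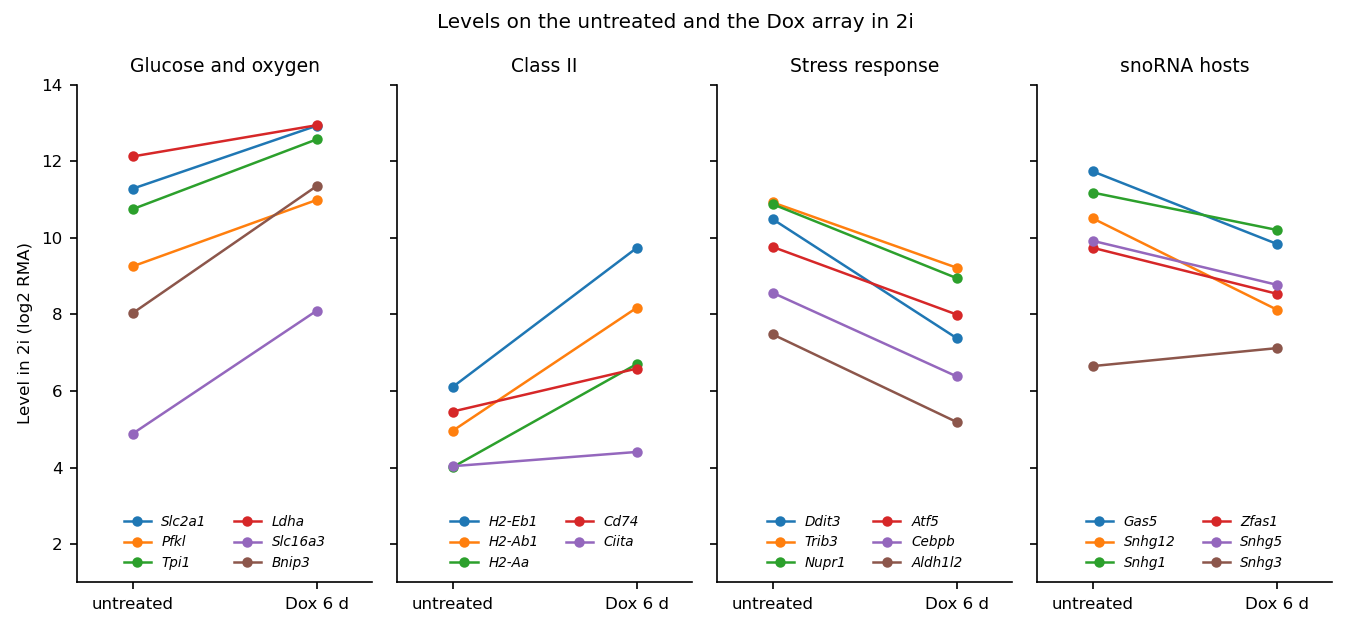
Levels (log2 RMA) on the 2i array without Dox (left point of each line) and with Dox for 6 d (right point) of genes of 4 groups: glucose and oxygen, MHC class II, the stress response and snoRNA hosts. Lines join the 2 arrays of 1 gene. Lines of the first 2 panels slope up and those of the last 2 slope down, with *Snhg3* (6.65 and 7.12) as the exception.

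MHC class II genes, which bring extracellular peptides to CD4 T cells and are normally made by antigen-presenting cells, were among the largest differences. Of 9 measured genes 4 were at least 2-fold higher: *H2-Eb1* (6.10 and 9.73), *H2-Ab1* (4.96 and 8.17), *H2-Aa* (4.01 and 6.70) and the invariant chain gene *Cd74* (5.46 and 6.58). The 3 probe sets of *H2-Ab1* differed by 1.46 to 3.22, and the 4 of *H2-Aa* by 0.43 to 2.69. *H2-Oa*, *H2-Ob* and *H2-DMa*, which load or edit peptides, lay between -0.18 and -0.05, at levels below 6. *Ciita*, the class II transactivator, stood at 4.03 and 4.41, below 6 on both arrays. Its DNA-bound partners *Rfx5* (6.68 and 7.77) and *Rfxap* (6.91 and 7.73) were higher, and both lie on chromosome 3. Of 11 leukocyte markers listed after these values were seen, none was 2-fold apart and 2 reached 6 (*Cd68* and *Cd3e*), while *Ptprc*, which encodes CD45 on all leukocytes, stood at 2.66 and 2.83. In bulk RNA, a few cells with much of a transcript and many cells with little cannot be told apart.

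MHC class I and interferon genes did not share this. Of 18 class I genes 1 was at least 2-fold higher, *H2-K1* (8.74 and 9.76, with probe sets from 0.07 to 1.03), and the median was 0.02. Of 26 interferon-stimulated genes 20 were lower, with a median of -0.24. *Bst2*, tetherin, stood at 7.21 and 5.83, and *Ifitm1* and *Ifitm3* were lower by 0.90 and 0.84. *Sp110*, which is also on the two-cell embryo list, was higher (6.90 and 8.80) on its brightest probe set, while the lowest of its 3 probe sets differed by -0.01.

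Ribosome assembly genes, the classical targets of MYC, were lower by small amounts. Of 34 nucleolar genes 28 were lower, with a median of -0.42 and 2 at least 2-fold: the box C/D snoRNP core gene *Nop58* (11.10 and 9.75) and the RNA polymerase I subunit gene *Polr1e* (9.31 and 8.24). *Npm1*, nucleophosmin, stood at 13.34 and 12.72. Translation initiation factors (22 genes) and chaperonins (12 genes) both had a median of -0.32 with no member past 2-fold, and cytosolic ribosomal proteins one of -0.11. Host genes of small nucleolar RNAs stood lowest of all lists on the brightest probe sets, with a median of -0.96 over 11 genes, 10 of them lower and 4 at least 2-fold (the same list differed by 1.64 between both untreated LIF+serum arrays): *Snhg12* (10.51 and 8.12), *Gas5* (11.73 and 9.84), *Zfas1* (9.74 and 8.54) and *Snhg5* (9.92 and 8.77). These host transcripts are also turned over by nonsense-mediated decay, and their level depends on translation. The 4 probe sets of *Gas5* differed by -1.89 to -0.21 and the 3 of *Snhg5* by -1.15 to 0.51, so that the median over the means of each gene's probe sets was -0.49, no longer the lowest, since the p53 list was then at -0.51 and the ISR list at -0.50.

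The MYC network was itself partly higher. Of 13 members 11 were higher, with a median of 0.75 (0.49 with the probe sets of each gene averaged). *Myc* stood at 6.08 without and 7.44 with Dox (2.56-fold higher), still below 9.10 and 9.48 on the untreated LIF+serum arrays. *Mycn*, the more strongly expressed paralogue in these cells, stood at 9.55 and 10.31. The MAX partner repressor genes *Mnt* (8.74 and 9.90) and *Mxd4* (5.03 and 6.16) were at least 2-fold higher on their brightest probe sets, but other probe sets of both lay at -0.18 and -0.02. *Mga*, the MAX partner in PRC1.6, was lower by 0.74, and none of 14 PRC1.6 genes passed 2-fold.

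Pluripotency genes stayed within 2-fold. None of 14 core and none of 16 naive pluripotency genes passed it in either direction, with medians of 0.12 and 0.06 (0.10 and -0.02 without chromosomes 3 and 6). *Pou5f1*, which encodes OCT4, stood at 12.92 and 12.99, *Sox2* at 12.49 and 12.62 and *Nanog*, on chromosome 6, at 12.33 and 12.95. *Klf4* (12.34 and 12.68) and *Esrrb* (11.23 and 11.54) lay as close, and *Fbxo15* (-0.81) and *Jam2* (-0.84) were the lowest of the naive list. *Prdm14*, which keeps the naive state and DNA methylation low, was higher by 0.80.

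Primed epiblast genes went both ways, with a median of -0.08 over 15. *Otx2*, a transcription factor that drives the exit from the naive state, stood at 6.503 and 3.20 (9.88-fold lower, 1 probe set). *Dnmt3l*, a cofactor of de novo DNA methylation, stood at 9.70 and 11.97 (4.82-fold higher), and *Lef1* at 4.98 and 6.62. *Dnmt3b* (9.95 and 9.75), *Fgf5* (3.73 and 3.84) and *Pou3f1* (4.82 and 4.74), further genes of the primed state, lay close together on both arrays. The Nodal inhibitor genes *Lefty2* (6.35 and 4.35) and *Lefty1* (7.32 and 6.46) were lower, *Nodal* itself by 0.35. Of the 13 genes of their list, for Nodal, BMP and Id genes, 9 were higher and 4 lower, 2 by at least 2-fold, with a median of 0.17. *Krt8* (10.43 and 8.36) and *Krt18* (8.34 and 7.16), keratins of simple epithelia and trophectoderm, were 4.21-fold and 2.25-fold lower, while the trophectoderm regulators *Cdx2* and *Elf5* stayed below 6. Both keratins are on a trophectoderm list of 15 genes, of which 9 were higher with Dox, with a median of 0.04, and *Gata2*, on chromosome 6, was at least 2-fold higher (6.60 and 8.12).

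Some targets of β-catenin were higher, in cultures that both held the GSK3β inhibitor. Of 14 genes 9 were higher and 5 lower, and 4 were at least 2-fold higher and none 2-fold lower: *Notum*, a secreted WNT deacylase (7.28 and 9.35), *Sp5* (7.61 and 9.16), *Axin2*, a feedback inhibitor (7.52 and 9.02), and *Lef1*, on chromosome 3. The median was 0.52, and 0.34 without chromosomes 3 and 6. Of the 14, 7 did not reach 6 on either array. Of 18 genes that answer to FGF-ERK signalling, *Spry4* (5.19 and 7.29) and *Etv4* (6.88 and 8.35) were at least 2-fold higher and *Jun* lower. *Dusp6* (7.70 and 7.46) and *Egr1* were not higher, and *Spry4* remained below its level of 8.88 on each untreated LIF+serum array.

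Growth and cell cycle genes showed a few large differences. Among 24 G1 cyclins, CDKs and inhibitors 3 were at least 2-fold higher and none 2-fold lower, with a median of 0.18 (0.04 without chromosomes 3 and 6). *Ccne2*, cyclin E2, stood at 5.57 and 8.04 (5.54-fold higher), the INK4 inhibitor gene *Cdkn2d* at 8.03 and 9.25 and *E2f1* at 7.62 and 8.65. *Ccnd1*, cyclin D1, lay just under 2-fold (0.99, with its 3 probe sets from 0.79 to 1.13). No member of the mitosis and kinetochore list (25 genes, median 0.04) passed 2-fold, and 1 of 28 replication licensing genes did.

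Clock genes were noticed among the higher genes after their values were seen. BMAL1-CLOCK dimers act through the same E-box as MAX. Of 18 clock genes measured 15 were higher and 5 at least 2-fold, *Per1* (5.65 and 7.04), *Ciart* (8.57 and 9.92), *Nr1d1* (5.52 and 6.57), *Nr1d2* (7.90 and 8.93) and *Bhlhe40* (7.12 and 8.99), and none was 2-fold lower. The median was 0.62. *Arntl*, which encodes BMAL1 (8.09 and 8.22), and *Clock* (6.94 and 6.91) differed by at most 0.13. *Ciart* and *Bhlhe40* lie on chromosomes 3 and 6. The hour of harvest is unknown here, and its part was not tested.

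Germ cell genes, described here only for scale, were higher as well. Of 15 germline genes 12 were at least 2-fold higher, with a median of 1.99 (1.85 for the 10 outside chromosomes 3 and 6), *Dazl* from 10.10 to 12.10 and *Stra8*, on chromosome 6, from 8.60 to 10.36. Germ cell lists supplied 17 of the 270 genes at least 2-fold higher. All 59 lists together supplied 54 of these and 49 of the 362 lower genes. The lists held 963 of all 18193 genes measured, 77 of them on germ cell lists. Most genes past 2-fold belonged to no list, as did most genes measured.

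After 6 d of Dox in LIF+serum, 8.66% of 10513 genes were at least 2-fold higher and 8.35% at least 2-fold lower. The media comparisons shared no array. Of 244 genes higher in 2i that could be read in both media, 77 were at least 2-fold higher in LIF+serum too, 31.6% of the 2i list and 11.0% of the 702 genes of the LIF+serum list. Of 294 lower genes, 68 were lower in LIF+serum, 23.1% of the 2i list and 8.66% of the other. The opposite direction by at least 2-fold was seen for 14 of the higher genes (5.74%) and 25 of the lower (8.50%). Against 4 d of Dox in LIF+serum the shared part of the 2i lists was 21.4% of the higher and 6.57% of the lower genes. Across 9595 genes the differences in both media had a Pearson r of 0.22 and a Spearman rho of 0.17, as a description over genes, which are not replicates.

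Single lists differed more between the media. Glycolytic genes had a median of 0.76 in 2i and -0.70 in LIF+serum, where 8 of 20 were at least 2-fold lower, and NRF2 genes 0.20 and -0.87. The ISR list had -0.49 and 0.16, and the p53 list -0.53 and 0.24. Naive pluripotency genes had 0.06 and 0.72. The snoRNA hosts (-0.96 and -1.70) and nucleolar genes (-0.42 and -0.78) were lower in both, and germline genes higher in both (1.99 and 4.56). Untreated arrays alone also set some of these lists apart. From the first to the second untreated LIF+serum array the median moved by 1.64 in the snoRNA hosts and 0.80 in germline genes. It moved by 0.59 in the ISR list, 0.56 in amino acid transporters and -0.54 in class II genes. In naive pluripotency genes it moved by 0.44 and in the p53 list by 0.26. The move was 0.01 in glycolytic, 0.05 in NRF2, -0.08 in hypoxia and -0.09 in nucleolar genes. The β-actin 3′ minus 5′ difference was 0.88 on the untreated and 1.46 on the Dox array of LIF+serum, and its part was not tested. The difference between media was not tested, with 1 array a condition.

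**Figure D5:**
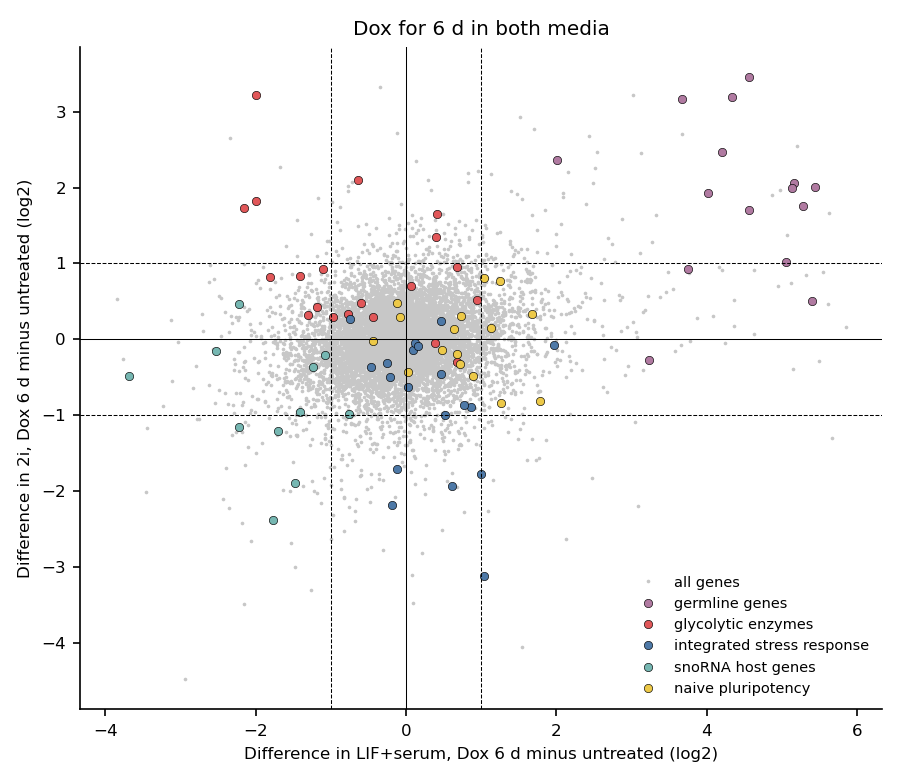
Difference after 6 d of Dox in LIF+serum (x axis) and in 2i (y axis), each as Dox minus its untreated array (log2). Grey points are the 9595 genes that reached 6 in both comparisons, coloured points all measured members of 5 lists, and dashed lines mark 2-fold. Germline genes lie at the upper right, many glycolytic genes at the upper left and several stress response genes below the axis on the right.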

How the data were processed

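Total RNA was hybridised to Affymetrix mouse expression arrays of the 3′ type, and the deposited values are log2 levels that the authors made by RMA with affy, without versions or a list of the arrays normalized together. Of 45101 probe sets, 64 controls were left out, and 34945 with 1 symbol in the platform annotation gave 18193 genes; 932 had several symbols and 9160 were unnamed here. No Entrez ID changed a symbol. Each gene was read on the probe set with the highest mean over all 10 arrays, in python 3.11.15 with pandas 2.3.3. Genome-wide counts took genes where either array reached 6 (log2), except where all 18193 genes are named. List counts and medians took every measured member, also those below 6. The number of arrays limits the precision. Named genes are the 30 largest differences each way, up to 5 per list and up to 10 each way for opposite differences between media; others were named from the 59 lists or after their values were seen. The members and lists were chosen with earlier results of these data known. Alternatives were other fold limits, filters, probe set rules, quantile normalization, lowess centring (numpy 2.4.6, statsmodels 0.14.6) and, added after seeing the data, leaving out chromosomes 3 and 6. Only the counting of genes past 2-fold, with quantile normalization and lowess centring, was tested on simulated arrays. Promoter sequences are from RefSeq.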

Additional observations from a re-analysis of the deposited data

Results flagged for a closer look

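Some values had opposite directions in the 2 media, and the difference between media was not tested, with 1 array a condition. The glycolytic list had a median of 0.76 in 2i and -0.70 in LIF+serum.

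Of genes that reached 6 in 2i, 14 were higher in 2i and lower in LIF+serum by at least 2-fold each, and 28 the other way. Among genes read in both media, 5.74% of 244 higher genes and 8.50% of 294 lower genes were opposite. Of the 9595 genes read in both media, 785 were at least 2-fold lower and 702 at least 2-fold higher in LIF+serum. Over the wider set of 10513 genes in LIF+serum, 8.35% were lower and 8.66% higher. Whether the opposite shares differ from those of all genes was not tested. Of the 14, the 10 whose smaller difference was largest were *Slc16a3* (3.22 and -2.001), *Aire* (2.65 and -2.34), *Dnmt3l* (2.27 and -1.68), *Bhlhe40* (1.87 and -1.18), *Tpi1* (1.82 and -1.999), *Pfkl* (1.74 and -2.16), *Ndufa4l2* (1.58 and -1.45), *Nqo1* (1.39 and -1.27), *Mest* (1.23 and -1.60) and *Me1* (1.10 and -1.44).

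Of the 28 genes lower in 2i and higher in LIF+serum, the 10 whose smaller difference was largest were *Pdha2* (-4.05 and 1.54), *Gca* (-2.63 and 2.13), *Atp12a* (-2.19 and 3.09), *Hspa1a* (-1.83 and 2.47), *Stox2* (-1.59 and 1.73), *Dgkh* (-1.59 and 1.61), *Rbm44* (-1.56 and 1.77), *Pmaip1* (-1.33 and 1.86), *Ngly1* (-1.32 and 1.68) and *Jun* (-1.31 and 1.49).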

How the results depend on the processing

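Of 21 lists with a median past the probe set spread (0.22), none changed direction in 105 recomputed values. Nearer 0, imprinted genes went from 0.01 to -0.46 over members that reach 6 and to -0.23 without chromosomes 3 and 6, and retinoid genes from 0.05 to -0.24 over members that reach 6. The 270 higher and 362 lower genes became 980 and 1082 at 1.5-fold, 36 and 49 at 4-fold, and 440 and 615 when probe sets were counted in place of genes. They were 319 and 441 with no filter, 228 and 261 with a filter at 7, 284 and 350 after quantile normalization, 280 and 369 after lowess centring, 185 and 247 with the mean of a gene's probe sets, 185 and 345 without chromosomes 3 and 6, and 233 and 356 with each chromosome's median subtracted. With the mean of probe sets the median was 0.49 in the MYC network and -0.49 in the snoRNA hosts. Over members that reach 6 it was 1.51 in the WNT list and 2.95 in class II, and class II had 0.75 without chromosomes 3 and 6. A member counts as reaching 6 if either array does, and *H2-Ab1*, *H2-Aa*, *Cd74* and *Lef1* did so only with Dox. The medians of 1.51 and 2.95 therefore depend on the filter and are no check of these lists. The share of higher genes also higher in LIF+serum was 50% at 4-fold, and that of lower genes 6.57% against 4 d of Dox. The cause was not tested. Of 1010 genes, 150 moved by more than the probe set spread with the mean of probe sets. Leaving out a replicate was not possible with 1 array a group. No paired analysis was possible because each group has 1 array.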

Other observations

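Early embryo genes were mostly higher on one list and mixed in another family. Of 11 two-cell embryo genes 8 were higher with Dox, 3 at least 2-fold, and 1 was at least 2-fold lower, with a median of 0.84 in 2i and 4.62 in LIF+serum. The PRAME family, many of whose members are made in germ cells and early embryos, was looked at after its values were seen. Of 12 measured members, 3 were at least 2-fold lower, *Pramel12* (9.02 without and 6.39 with Dox), *Pramel6* (10.06 and 8.08) and *Pramel7* (6.59 and 5.36), while 6 were higher by under 2-fold, and the median was -0.0069. Among 25 collagen and extracellular matrix genes 3 were at least 2-fold lower and none higher, and among 25 junction genes none passed 2-fold, with a median of -0.22.

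Imprinted genes had 1 member at least 2-fold higher and 2 lower of 21, with a median of 0.01, and -0.23 without chromosomes 3 and 6.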
